A study of Mus musculus with 36 samples.

Results

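The population described here is the CD11c-positive microglia of the cortex of APP mice, a transgenic amyloid model. It consists of every sorted cell of the 4 APP animals that the titles place in cortex and in the CD11c-positive gate and that had at least 200 detected genes: 587 of 588 barcodes, out of 2657 cells in the whole series. The animals, numbered 1 to 4 in the titles, gave 154, 143, 147 and 143 cells. All mice of the study were males aged 6 months, and single microglia came from cortex and hippocampus of APP and wild-type (WT) mice. After mechanical isolation in the cold, nucleated (DRAQ5) cells that excluded DAPI were gated on high CD11b and intermediate CD45. CD11c-positive cells were taken from APP mice only, and CD11c-negative cells from both genotypes. The comparison cells were 454 CD11c-negative cells from the cortex of 4 APP animals with the same numbers, 362 CD11c-positive cells from APP hippocampus in 3 replicates named 1-2, 2-3 and 4, and 390 CD11c-negative cells from the cortex of 4 WT animals. The replicates 1-2 and 2-3 may be pools of animals.

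Microglia are the resident macrophages of the brain. In undisturbed tissue they carry a homeostatic set of genes that includes purinergic and chemokine receptors such as P2ry12 and Cx3cr1. Around amyloid plaques many microglia carry an activation set instead or in addition, which is known for lipid handling, lysosomal and phagocytic genes, and which includes Itgax, the gene of the integrin CD11c used in the gate. The population was described by 5 markers, which did not select its cells: Itgax, Apoe, Cst7, Lpl and Igf1. Apoe encodes a lipid carrier, Cst7 an inhibitor of lysosomal cysteine proteases, Lpl the lipoprotein lipase and Igf1 a secreted growth factor.

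The population's 4 animals held 4484427, 3404089, 3614329 and 3941745 counts, with a median of 21607, 18886, 18132 and 21784 counts and of 903, 1001, 1179 and 1105 genes per cell. The genotype tag of the labels calls both libraries of animal 3 wild type although their titles say APP, as it goes against the title in 17 of 36 libraries, so groups were taken from titles. It does the same for the CD11c-negative cortical libraries of APP animals 1 and 2 and for every CD11c-positive library of APP hippocampus. Counts of called genes and the per-cell numbers compared between the gates were also computed without animal 3. Co-detection, the splits of cells by a marker, the correlations of named pairs and the levels of leading genes were not. The relations of other genes to the activation number and the spread of named genes were not computed without animal 3 either. The libraries shared 80 of 82 barcodes, which here name wells of a plate; the median correlation of cell profiles was 0.0073 for cells with the same barcode and -0.0034 for other cells. No doublets were called, and no pair among 630 pairs of libraries was identical. Nothing in the labels says more of the animals than their numbers, so p-values measure the spread between these animals or pools. In APP cortex the second number after the gate in the titles is 3 or 4 for every CD11c-positive library. It is 1 or 2 for every CD11c-negative one. Its meaning is not given, so what it marks and the gate cannot be told apart in any comparison of the gates.

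The label was set beside the 5 markers and genes of other cells. The markers belong to an activation list drawn up with these cells' results known, so they are no independent check. Apoe was detected, meaning at least 1 count, in 99.4%, 100%, 99.3% and 98.6% of the cells of the 4 animals. Cst7 was detected in 57.8%, 68.5%, 72.1% and 68.5% of cells and Lpl in 32.5%, 49.7%, 52.4% and 42.7%. Igf1 was found in 20.1%, 30.1%, 23.8% and 29.4% of cells, and Itgax itself in 16.2%, 16.1%, 20.4% and 16.1%. So Apoe was near universal, Cst7 was found in most cells of every animal, and transcripts of the gene behind the sorting gate were found in few. Genes of monocytes, border macrophages, dendritic cells, neutrophils and lymphocytes were nearly absent: their summed levels were at most 54.9 CPM (a gene's counts scaled to a total of 1e+06) in any animal, and the macrophage gene Mrc1 had a count in 3 cells.

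Genes of neurons, astrocytes and oligodendrocytes were not absent. At least 2 markers of a single other cell type occurred in 191 of 587 cells (32.5%), namely 33, 46, 49 and 63 cells of the 4 animals. The summed neuronal list of 12 genes lay between 1012 and 2104 CPM, the astrocyte list of 9 genes between 857 and 2115 CPM and the oligodendrocyte list of 10 genes between 393 and 575 CPM. The same share was 17.8% in CD11c-negative APP cortex and 6.35% in CD11c-positive APP hippocampus. The cells with such markers held a median of 1273 genes and 26252 counts, against 945 genes and 17637 counts in the rest. Whether they are doublets, engulfed material or free RNA was not tested. Counts of calls, per-cell numbers and pair correlations are also given without them; co-detection, the relations of other genes to the activation number and the spread were not computed without them.

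Expression was led by the cytoskeletal gene Actb at 9368 ± 452 CPM (SD, n = 4 animals) and by Cst3, a secreted cystatin of the homeostatic list, at 6350 ± 386 CPM. Next came Dpysl2 with 5051 ± 424 CPM, the lysosomal protease Ctsd with 4785 ± 473 CPM and Apoe with 4436 ± 471 CPM. Apoe was at 4782, 4903, 4009 and 4052 CPM in the 4 animals, so all animals lay within a narrow range. The other 15 of the 20 leading genes, after mitochondrial, ribosomal and predicted genes were left out, were Cd81, Bhlhe41, Ctsb, Malat1, Gm2a, Bmp2k, Gnb1, Dhrs3, Sat1, Abcg1, C1qc, Dusp3, B2m, Ctss and Tubb5, with means from 2626 to 4352 CPM. They include proteases and a cofactor of the lysosome (Ctsb, Ctss, Gm2a), a cholesterol exporter (Abcg1), a complement component (C1qc) and the light chain of MHC class I (B2m).

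Levels were also divided by the exon length of each gene. Such values compare genes with each other only if reads cover whole transcripts, which was not tested. Per kilobase of exon sequence Cst3 led with 5015 CPM per kb, followed by Actb (3497) and B2m (3477). Tyrobp, the signalling adaptor of Trem2, reached 2583 CPM per kb, Ctss 2199, C1qb 2097, Apoe 2075 and Ctsd 2035. On the same scale Cst7 was at 992.7, Lpl at 59.7, Itgax at 31.5 and Igf1 at 26.8 CPM per kb, so Apoe stood above each of the other 4 markers. The neuronal transcript Bc1 was among the 10 highest at 2959 CPM per kb.

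The profile was broad and shallow. The 10 genes with most counts held 5.28 ± 0.19% of all counts, and the 100 highest held 23.3 ± 1.03%. Of 20939 genes with a count, 4 were found in every cell, 46 in at least 90% of the cells of each animal, 270 in at least 50% and 986 in at least 20%. Another 10730 genes had a count in fewer than 10 cells.

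The activation list held 30 genes, of which 29 had a count and 16 were detected in at least 20% of cells on the mean of the animals. After Apoe the most widely detected were the tetraspanins Cd63 (88.0 ± 4.8% of cells, 2053 ± 231 CPM) and Cd9 (85.0 ± 6.3%, 1340 ± 183 CPM) and the secreted protease inhibitor Serpine2 (85.2 ± 6.6%, 1654 ± 321 CPM). The chemokine Ccl6 was found in 68.4 ± 3.8% of cells, lysozyme (Lyz2) in 60.4 ± 6.8% and the adhesion molecule Cadm1 in 64.8 ± 13.2%. The receptors Axl and Clec7a were found in 25.5 ± 6.6% and 21.5 ± 6.8% of cells. Some genes of the list were rare in this population: Spp1 (osteopontin) had a count in 26 cells, Lgals3 (galectin-3) in 14 and Gpnmb in 3 of 587. All values are detection at the depth of each cell, and a missing count does not show that a cell lacked the transcript: the 196 cells without Cst7 had a median of 16423.5 counts and those with it 22583.

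Homeostatic genes were present in the same cells. All 25 genes of the list had a count, and 16 were detected in at least 20% of cells. Cst3 was found in 587 of 587 cells. Selplg was detected in 84.0 ± 5.4% of cells, Gpr34 in 81.0 ± 5.9%, Csf1r, the receptor for the growth factor on which microglia depend, in 75.2 ± 7.3% and P2ry12 in 65.7 ± 7.9%. Tmem119 was found in 39.0%, 38.5%, 53.1% and 52.4% of the cells of the 4 animals. Siglech varied most between animals, with 42.2% and 40.6% in animals 1 and 2 and 78.9% and 71.3% in animals 3 and 4.

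**Figure D1:**
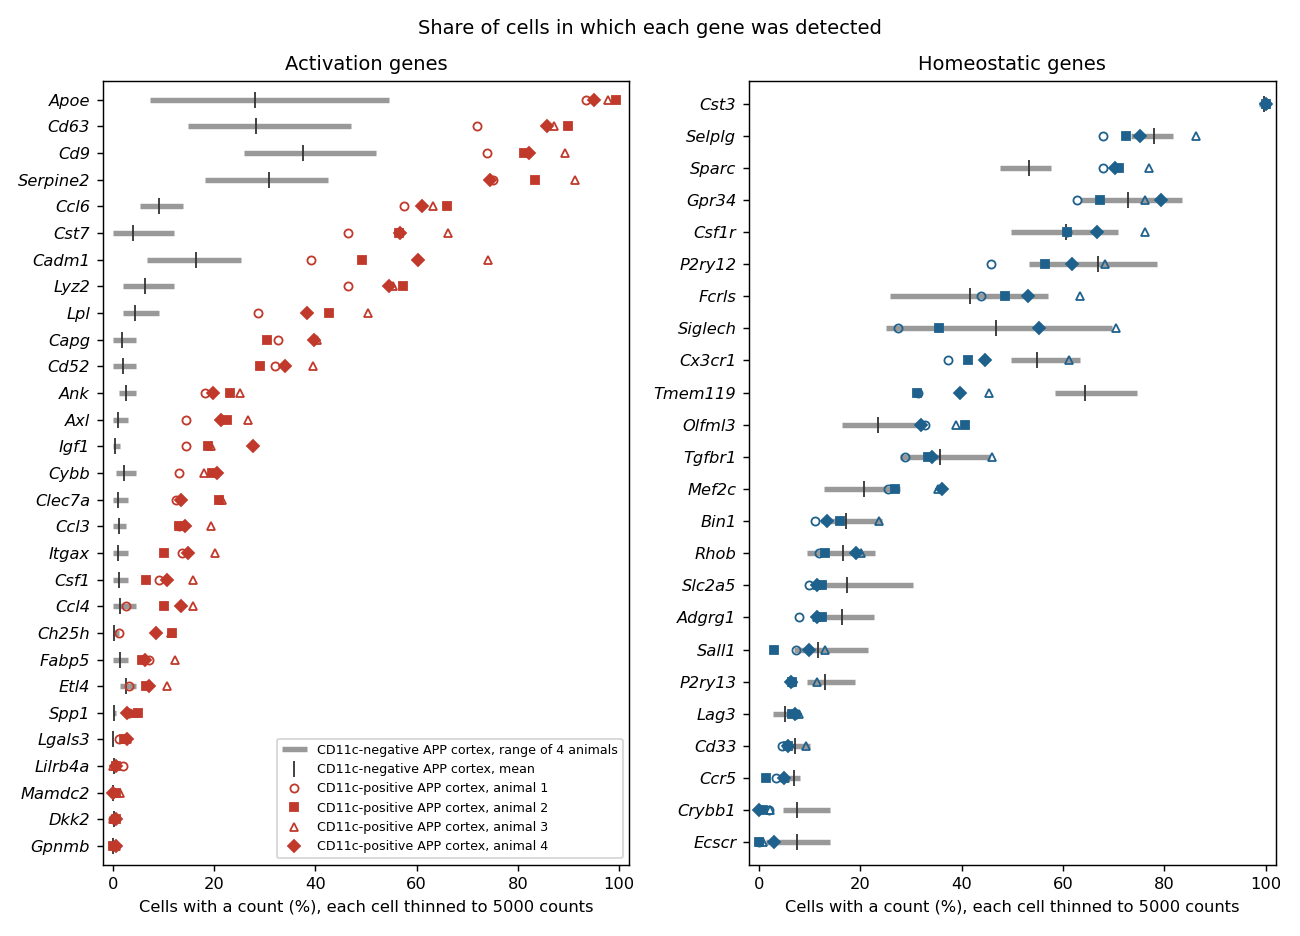
Share of cells (x axis, %) with a count of each activation gene (left) and homeostatic gene (right) after every cell was thinned to 5000 counts; symbols are the 4 animals of the CD11c-positive APP cortex, grey bars the range and ticks the mean of CD11c-negative APP cortex. The points of Apoe, Cst7, Lpl, Itgax and Igf1 lie to the right of their grey bars; those of Tmem119 lie to the left of theirs, and most homeostatic genes drawn overlap them.

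Genes of related pathways showed which functions were widely transcribed. Of 25 lysosomal genes, 15 were detected in at least 50% of cells, led by Ctsb, Ctsd, Gm2a and Ctss, each in 98.3% to 99.8%. Of 20 genes of phagocytic receptors and their partners, 7 passed the same mark, among them C1qc, C1qb, Tyrobp (89.4 ± 3.8% of cells) and Trem2 (89.1 ± 1.9%). The lipid-handling list of 16 genes had 4 above it: Apoe, Abcg1, the cholesterol transporter Npc2 (63.4%) and Soat1 (72.5%), which esterifies cholesterol.

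Other programmes were sparse. No interferon-response gene of 21 reached 20% of cells, and 30 cells held at least 3 of these genes. For MHC class II, H2-DMa was found in 35.4% and Cd74 in 30.9% of cells, and 38 cells held at least 3 of 8 genes. Cell-cycle genes of 18 were each below 20%, with Tyms in 53 cells and Top2a in 27; 24 cells held at least 3, and 10 cells gave 39.6% of all counts of the list. Glycolytic genes were more common, with Aldoa in 56.3%, Pkm in 48.6% and Hk2 in 43.5% of cells.

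Cells differed in how many of the 5 markers they held. At full depth 2 cells held none, 99 held 1, 196 held 2, 183 held 3, 90 held 4 and 17 held all 5. With every cell thinned to 5000 counts, which 571 of 587 cells reached, the numbers were 6, 139, 200, 158, 57 and 11. Under the same thinning 331 of 440 CD11c-negative cells of APP cortex held none and 1 held 4; of 384 WT cortical cells 329 held none and 1 held 2. CD11c-positive cells of the APP hippocampus were distributed much like the population: of 353 thinned cells 2 held none, 79 held 1, 131 held 2, 94 held 3, 40 held 4 and 7 held all 5. In both CD11c-positive groups most cells thus held 2 or more markers, and few CD11c-negative cortical cells did.

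**Figure D2:**
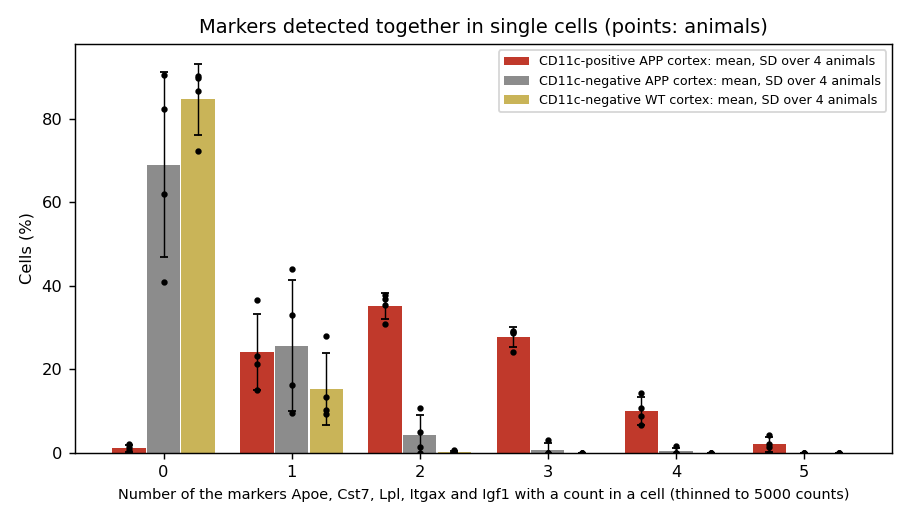
Percentage of cells (y axis) by the number of the markers Apoe, Cst7, Lpl, Itgax and Igf1 with a count (x axis) after thinning to 5000 counts, for 3 groups of cortical cells; bars are means, error bars SD and points the 4 animals of each group. Cells of the CD11c-positive population peak at 2 markers, while CD11c-negative cells peak at 0.

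With all libraries, the number of activation genes per cell separated the gates, and the number of homeostatic genes overlapped between them. Thinned cells of the 4 animals held on average 7.27, 8.63, 9.81 and 8.68 activation genes, against 1.23, 0.99, 2.25 and 2.98 in the CD11c-negative cells of the APP cortex. The groups did not overlap: the means were 8.60 ± 1.04 and 1.87 ± 0.92 (SD, n = 4 each), and the exact two-sided permutation test gave p = 0.0286, the smallest these numbers allow (0.0381 after Benjamini-Hochberg adjustment over 4 tests). The list was drawn up with these cells' results known and holds the markers of the population, so this p is no independent evidence. Without Itgax, whose protein set the gate, the difference was 6.59 genes instead of 6.73. Single cells ranged from 1 to 16 activation genes, and 10% to 90% of the cells of each animal lay between 4 and 14.

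Homeostatic genes numbered 7.80, 8.40, 10.38 and 9.01 per thinned cell in the population and 7.93, 8.41, 11.03 and 9.73 in CD11c-negative cells. These groups overlapped, with means of 8.90 ± 1.10 and 9.27 ± 1.39, and the exact permutation p was 0.657 (adjusted 0.657). The overlap depended on the libraries whose genotype tag goes against the title. Without them the population kept animals 1, 2 and 4 (7.80, 8.40 and 9.01). All lay below the remaining CD11c-negative animals 3 and 4 (11.03 and 9.73). With so few animals the exact permutation test allows no p below 0.2. Within each of the 4 same-numbered pairs the population had the lower number; the paired exact sign-flip test cannot pass the threshold with 4 pairs. The level told a different story from the number: homeostatic genes made up 1.67% to 1.85% of the thinned counts of a cell on the mean of each animal, against 2.64% to 2.73% in CD11c-negative cells. The summed level of the list was 15711 ± 695 CPM, with the CD11c-negative cells at 24410 ± 1195 CPM.

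Other measures of the cells differed as well. Thinned cells of the population held 836 ± 135 genes, against 548 ± 88.8 in CD11c-negative cells (exact permutation p = 0.0286, adjusted 0.0381). Mitochondrial genes took 2.68 ± 0.57% of counts, against 1.30 ± 0.43% (exact permutation p = 0.0286, adjusted 0.0381). The part of these differences in the numbers of activation genes was not tested. Without the cells that held other cell types' markers, the activation difference was 6.98 genes and the difference in genes per cell 244 instead of 288.

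Activation and homeostatic genes did not replace each other from cell to cell. Across cells, Spearman's rho between the numbers of activation and homeostatic genes was 0.296, 0.293, 0.297 and 0.285 in the 4 animals (571 cells, each thinned to 5000 counts). Cells with more genes of any kind had more of both, and with the number of genes per cell held constant the partial rho was 0.176 ± 0.037. The same rho was 0.101 ± 0.092 in CD11c-negative APP cortex, 0.152 ± 0.171 in CD11c-positive APP hippocampus and 0.015 ± 0.178 in WT cortex, with partial values of -0.070 ± 0.120, -0.128 ± 0.163 and -0.138 ± 0.148. Without the cells that held other cell types' markers the population's mean rho was 0.288. These correlations describe cells that share libraries and depth, and the differences between the groups were not tested.

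**Figure D3:**
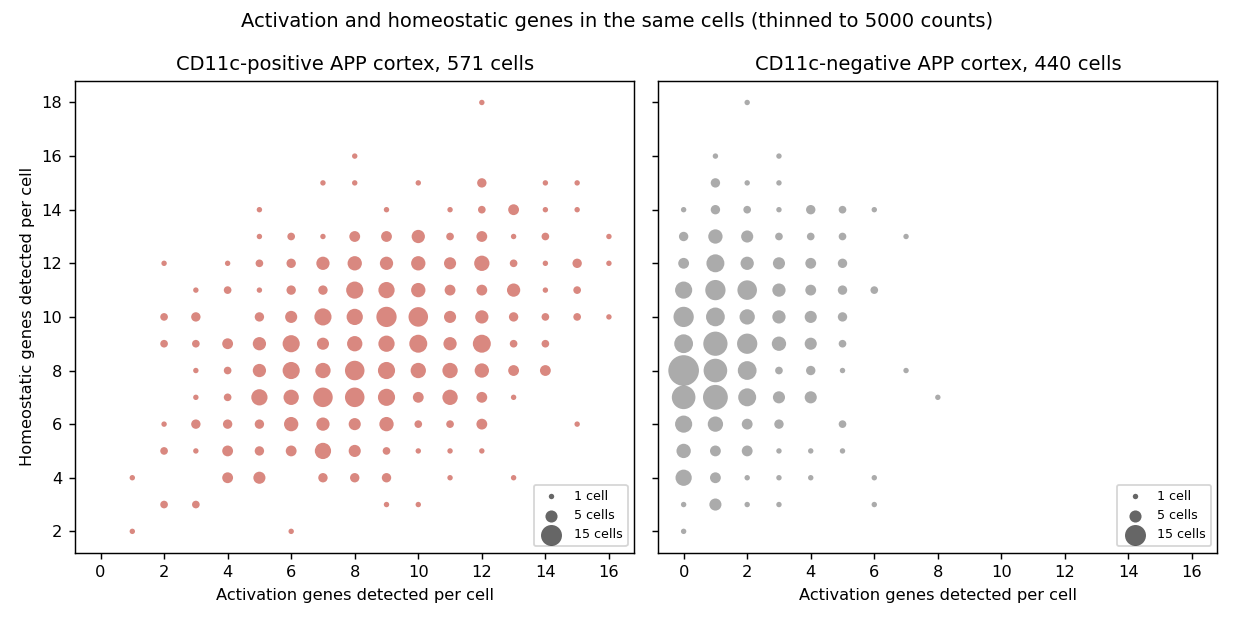
Number of homeostatic genes (y axis) against number of activation genes (x axis) detected in each cell after thinning to 5000 counts, for CD11c-positive (left, 571 cells) and CD11c-negative (right, 440 cells) APP cortex; the area of a point is the number of cells. Both groups cover the same range on the y axis, and the population is shifted to higher numbers on the x axis without a downward slope.

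Detection of named pairs was also described. At full depth Cst7 and Tmem119 were both found in 32.9 ± 10.1% of cells, where the product of their shares within each animal gives 30.8%. The observed share was above the product in 3 of 4 animals. After thinning to 5000 counts the mean was 22.6%, against a product of 21.2%. Cst7 and P2ry12 occurred together at full depth in 35.1%, 42.0%, 57.8% and 49.0% of the cells of the 4 animals. The products were 33.0%, 41.7%, 53.0% and 48.9%, so the observed share was the higher in each. After thinning it was the lower in animal 2 (31.2% against 31.9%) and the higher in animals 1, 3 and 4. Other pairs lay below the product at full depth, among them Lpl with P2ry12 (mean 29.1% against 29.4%) and Igf1 with Csf1r (18.5% against 19.4%). Apoe was found in nearly all cells, so its co-detection with another gene carries no information. Cells with Itgax (84 after thinning) held 9.92 other activation genes and 9.69 homeostatic genes on the mean of the animals. The 487 cells without it held 8.18 and 8.77, and both numbers were higher with Itgax in each of the 4 animals. Split by Cst7, both numbers were likewise higher in the cells with it in each animal. Split by Lpl or Igf1, the number of other activation genes was higher with the marker in each animal, but in animal 4 homeostatic genes were fewer with it: 8.87 against 9.10 for Lpl and 8.69 against 9.14 for Igf1. For Apoe 21 cells lacked a count, 1 of them in animal 2, too few for such a split. In the other splits cells with the marker also held more genes of any kind on the mean of the animals. These means were 857 against 832 for Itgax, 849 against 822 for Cst7, 876 against 812 for Lpl and 909 against 824 for Igf1. The order was reversed in animal 2 for Itgax and Cst7 and in animal 4 for Igf1. The splits were not adjusted for the number of genes.

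Between single genes, correlations across cells were weak. Of the lists, 11 activation and 14 homeostatic genes were detected in at least 20% of thinned cells of every animal, as were 648 genes in all. The median rho, averaged over the animals, was 0.071 for 55 pairs of activation genes, 0.045 for 154 pairs of an activation and a homeostatic gene and 0.046 for 91 pairs of homeostatic genes. Over all 209628 pairs of the 648 genes it was 0.013, and 5% of pairs lay below -0.080 and 5% above 0.103. Without the cells that held other cell types' markers (384 cells left), the median was 0.012 for mixed pairs, beside 0.012 for all pairs, 0.061 for activation pairs and 0.026 for homeostatic pairs. The mixed and the homeostatic pairs thus both had lower medians without these cells.

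The highest mixed pair was Apoe and Cst3, secreted proteins that were both found in nearly all cells, with rho of 0.330, 0.405, 0.448 and 0.268 in the 4 animals. It was followed by Serpine2 with Sparc, a matrix-binding glycoprotein (0.174 ± 0.084), Cd63 with Cst3 (0.154 ± 0.065) and Serpine2 with Cst3 (0.152 ± 0.088). The pair of Cst7 with Fcrls, a scavenger-like receptor of the homeostatic list, was at 0.152 ± 0.022. The lowest mixed pairs were Apoe with Fcrls (-0.110 ± 0.107) and Apoe with P2ry12 (-0.100 ± 0.079). Further down the list were Cd9 with Mef2c (-0.082), Lpl with Selplg (-0.077) and Lyz2 with Mef2c (-0.071). Apoe and P2ry12 were below 0 in all 4 animals, and Apoe and Fcrls in 3 of 4.

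Within the activation list the highest pairs were Capg with Cst7 (0.176 ± 0.078), Capg with Ccl6 (0.161 ± 0.152), Lyz2 with Apoe (0.161 ± 0.059), Ccl6 with Lpl (0.148 ± 0.103) and Cd63 with Apoe (0.144 ± 0.076). Of the 55 pairs 50 were above 0 on the mean, beside 59.9% of all pairs of the 648 genes. In all 4 animals 25 of the 55 were above 0, and the share of all pairs that were so is not given. Within the homeostatic list the receptors Gpr34 and Siglech were the highest pair, with a narrow range between animals (0.203 ± 0.015), followed by Cst3 with Csf1r (0.180 ± 0.092). Each value is small beside the possible range, so knowing the count of 1 gene says little about that of its partner in the same cell.

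**Figure D4:**
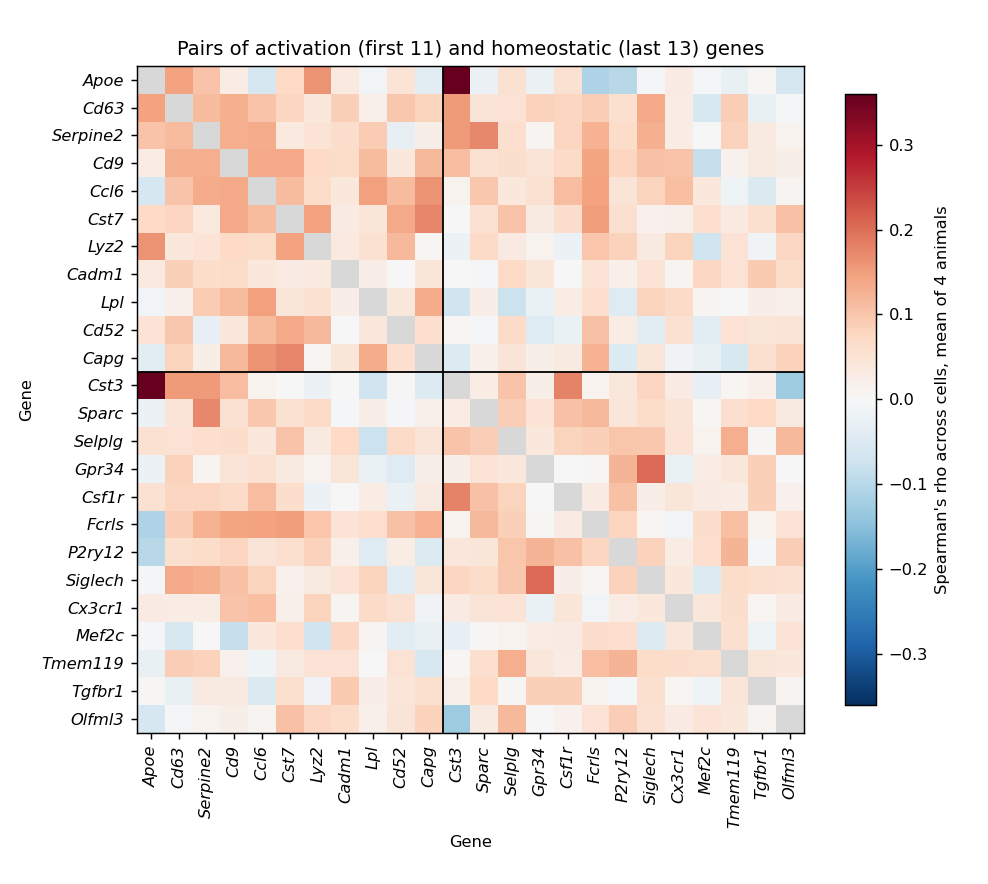
Spearman's rho across thinned cells (colour, mean of the 4 animals) for pairs of activation and homeostatic genes detected widely enough, activation genes first (1 homeostatic gene is not drawn); the diagonal is grey. Apart from Apoe with Cst3 the pairs lie between -0.128 and 0.203, and the mixed block holds values on both sides of 0.

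Among genes outside both lists, those most related to the number of activation genes in a cell were Gusb, a lysosomal glucuronidase (rho 0.274 ± 0.099), Syngr1, a vesicle protein (0.260 ± 0.057), and Fcer1g, a signalling adaptor of immune receptors (0.254 ± 0.102). The glycolytic enzyme gene Pkm was at 0.251 ± 0.028, the lysosomal membrane gene Cd68 at 0.239 ± 0.082 and Npc2 at 0.229 ± 0.099. Ttyh2, Sdf2l1, Tmem50a and the chaperone gene Calr followed with 0.209 to 0.222. All 10 were above 0 in each of the 4 animals, while the median over the 648 genes was 0.066. They were picked for the highest mean over these same animals, so their sign in each is no independent evidence. At the other end were Malat1 (-0.237 ± 0.138), Actb (-0.212 ± 0.097), Zfp691, Adap2os, Gnb1, Sat1, Dpysl2, Srsf2, Zscan26 and Ptafr. With the number of genes per cell held constant, the first 10 stayed between 0.142 and 0.275, while Malat1 was at -0.017 and Actb at 0.102.

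Spread between cells was measured as the coefficient of variation (CV, the SD over the mean) of thinned counts within each animal. Within the activation list CVs ran from 0.816 ± 0.109 for Apoe to 1.88 ± 0.165 for Capg. Cst7 had a CV of 1.36 ± 0.247 and Lpl of 1.72 ± 0.224, and in every animal the lowest 25% of thinned cells held no count of either. Within the homeostatic list Cst3 was the most even (0.498 ± 0.029) and Mef2c, a transcription factor gene, the least (2.17 ± 0.307).

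Because CV falls with the mean, each gene was set against the genes nearest to it in mean, as log2 of the ratio of squared CVs. By this measure Lyz2 stood at 0.66 ± 0.32, Ccl6 at 0.44 ± 0.33, Lpl at 0.44 ± 0.24 and Cst7 at 0.30 ± 0.12, each above 0 in 4 of 4 animals. Of 11 activation genes 7 were above 0 (median 0.05), of 14 homeostatic genes 3 (median -0.14) and of all 648 genes 329 (median 0.01). The most variable genes for their mean were Arap3 (0.96 ± 0.10), Cdk6 (0.96 ± 0.22), Asph, Pnisr, Lyz2, Tnrc6c, Itgav and Tcf7l2. The most even were Dpysl2, Ftl1-ps1, Cst3, Lrrc58, the ferritin light chain gene Ftl1, Cbx3, C1qc and Ctsb. Ftl1-ps1 is a near-identical copy of Ftl1, and reads may have been split between the pair.

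The highest-expressed genes have few neighbours above them in mean, so their value was also taken against a line fitted through those neighbours, an alternative chosen after seeing the data. Apoe then moved from -0.06 to 0.94 ± 0.33, above 0 in 4 of 4 animals and among the highest of the 648 genes (rank 3). Actb, the gene with the highest mean, moved from -0.60 to 1.15 and took rank 1. The place of such highly expressed genes thus depended on the measure. Cst3 moved from -1.47 to -0.08 and Ctsb from -1.16 to -0.22, so neither can be called even for its level. Cdk6 (0.95), Arap3 (0.92), Lrrc58 (-1.43) and Ftl1 (-1.20) kept their places at the ends. By the line 9 of 11 activation genes, 4 of 14 homeostatic genes and 361 of 648 genes were above 0.

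**Figure D5:**
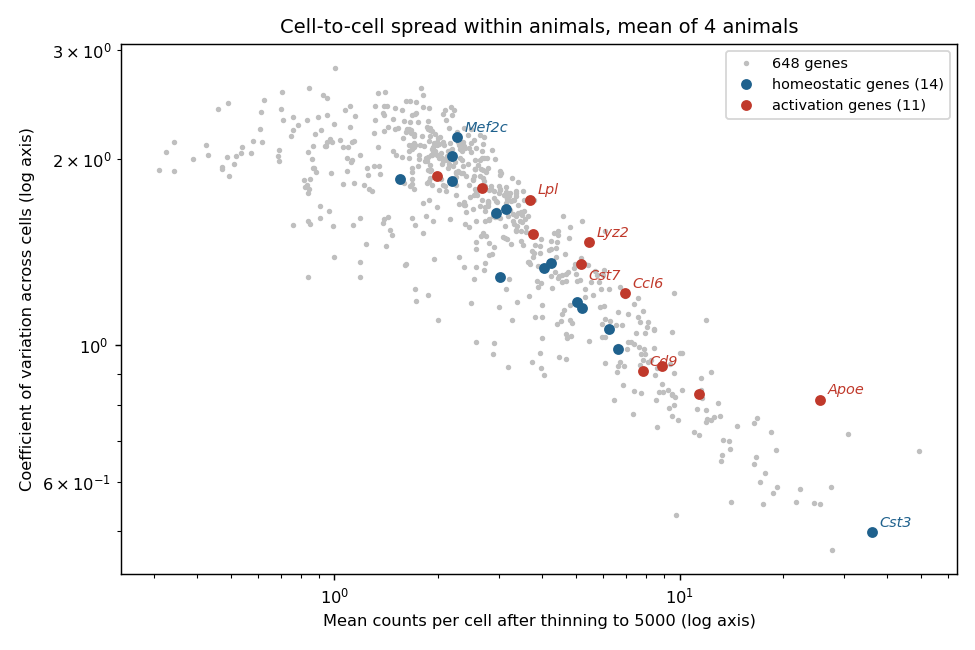
Coefficient of variation across cells (y axis, log scale) against mean counts per cell (x axis, log scale) after thinning to 5000 counts, each the mean of 4 animals, for 648 genes; activation genes are red and homeostatic genes blue. CV falls as the mean rises; Apoe (CV 0.816) and Cst3 (0.498) lie at the lower right, where few genes of like mean are found.

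Sums of counts per animal were compared with the CD11c-negative cells of the same cortex in edgeR (quasi-likelihood test; p-values adjusted after Benjamini-Hochberg over all 14892 genes). It called 78 genes higher (0.524%) and 105 lower (0.705%) in the population. The second title number differs between the gates throughout, so what it marks and the gate cannot be told apart here. Of 28 tested activation genes 11 were higher and 0 lower, with a median log2 fold change of 3.66 beside 0.19 for all genes tested. At unadjusted p below 0.05 these numbers were 23 and 0, and DESeq2 called 16 and 0; without the cells that held other cell types' markers edgeR called 13 and 0. The list was drawn up with these cells' results known, so its direction is no independent evidence.

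Apoe was at 4436 ± 471 CPM in the population and 391 ± 212 CPM in the CD11c-negative cells, a log2 fold change of 3.52 ± 0.54 (SE; edgeR adjusted p = 3.99e-04). Cst7 rose from 9.52 ± 16.3 to 979 ± 80.8 CPM (log2 6.87 ± 1.58, edgeR adjusted p = 0.0246) and Igf1 from 1.67 ± 2.77 to 266 ± 58.5 CPM (7.70 ± 1.56, adjusted p = 0.00880). The other 8 called were Cd63, Cd9, Serpine2, Ccl6, Lyz2, Cadm1, Cd52 and the cholesterol hydroxylase gene Ch25h. Lpl, at 626 ± 138 against 57.0 ± 44.5 CPM, and Itgax, at 151 ± 48.2 against 1.19 ± 1.83 CPM, did not overlap between the groups but missed the threshold (edgeR adjusted p = 0.208 and 0.0779).

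Homeostatic genes fell in part. Of 25 tested, 9 were lower and 0 higher, with a median log2 fold change of -0.80. At unadjusted p below 0.05 these numbers were 17 and 0, and DESeq2 called 13 and 0. Without the cells that held other cell types' markers edgeR called 6 and 0. This list too was drawn up with these cells' results known, so its direction is no independent evidence. Tmem119 was at 397 ± 25.9 CPM against 1600 ± 211 CPM (log2 -1.995 ± 0.149, edgeR adjusted p = 8.58e-09), P2ry12 at 700.2 ± 86.7 against 1795 ± 304 CPM (-1.34 ± 0.16, adjusted p = 1.53e-05) and Cx3cr1 at 502 ± 94.1 against 1238 ± 160 CPM (-1.29 ± 0.17, adjusted p = 8.37e-05). Selplg, Gpr34, Csf1r, Tgfbr1, Slc2a5 and Crybb1 were the other 6. Sparc, at 1197 ± 181 against 1169 ± 167 CPM, and Mef2c, at 425 ± 47.7 against 423 ± 137 CPM, had log2 differences of 0.05 ± 0.18 and 0.03 ± 0.34.

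Further lists moved in part. Of 25 lysosomal genes 8 were higher, among them Ctsb, Ctsd, Cd68, Hexa and Npc2 (log2 2.17 ± 0.36), and Lgmn, a lysosomal endopeptidase gene, was lower (-0.66 ± 0.15). Trem2 and Tyrobp rose among the phagocytic receptors (log2 0.74 ± 0.17 and 1.01 ± 0.16), Pkm and the glucose transporter Slc2a1 among the glycolytic genes and B2m among MHC class I genes (0.90 ± 0.15). No interferon, MHC class II, inflammatory, cell-cycle or immediate-early gene was called by edgeR, whose unadjusted p was below 0.05 for 3, 1, 5, 5 and 2 of them; DESeq2 called 2, 0, 0, 2 and 1. No neuronal, astrocyte or oligodendrocyte marker was called either (0, 0 and 2 at unadjusted p below 0.05, 0 by DESeq2). Without the cells that held other cell types' markers 1 astrocyte marker was lower. That filter picks cells by these same markers, so this call is no independent evidence.

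Among called genes of at least 50 CPM whose groups did not overlap, whether on a list or not, the largest rises were of Nenf, Ch25h, Igf1, Cst7, Cd52, Lyz2, Apoe, Ccl6, Pgd, an enzyme of the pentose phosphate pathway, and Hacd2, an enzyme of fatty acid elongation. Nenf, a secreted neurotrophic protein gene, had 909 counts in the population and 1 in the CD11c-negative cells, a ratio of 645 with an exact 95% counting interval from 115 to 25499. By the same rule the largest falls were of Crybb1, the semaphorin gene Sema4b, Cmtm7, Txlng, Tm6sf1, Mtss1, Oma1, Mpi, Srgap2 and the iron exporter gene Slc40a1. Sema4b fell by 3.04 on the log2 scale (SE 0.20, edgeR adjusted p = 6.39e-10), from 1274 ± 118 to 152.5 ± 36.3 CPM.

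These calls depended on how many animals and libraries entered. Leaving out any animal from either group gave 115 to 145 calls, of which 111 to 130 were among the 183, and leaving out the libraries whose tag goes against the title left 3 animals against 2 and 38 calls, 37 of them among the 183. Without the cells that held other cell types' markers 172 genes were called, 131 of them among the 183.

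CD11c-positive cells of the APP hippocampus had levels of the 5 markers that overlapped those of the cortical population. The genotype tag goes against the title in every library of these hippocampal cells. The comparison between regions therefore could not be repeated without such libraries. Apoe was at 4498 ± 153 CPM there (n = 3 replicates), Cst7 at 961 ± 44.5, Lpl at 841 ± 204, Itgax at 75.9 ± 9.81 and Igf1 at 277 ± 44.2 CPM, with overlapping replicates for each. Of 28 activation genes edgeR called 0 in either direction, with 0 at unadjusted p below 0.05 and 0 by DESeq2; the log2 difference of Apoe was 0.05 ± 0.52 and that of Cst7 0.10 ± 1.29. Of 25 homeostatic genes edgeR called 0, but the fitted log2 difference was above 0 for only 4, with a median of -0.57. At unadjusted p below 0.05 there were 13 lower and 0 higher, and DESeq2 called 5 lower; Cx3cr1 was at 502 ± 94.1 CPM in cortex and 939 ± 170 CPM in hippocampus, without overlap (log2 -0.82 ± 0.18, edgeR adjusted p = 0.0553). With standard errors of the size seen for Cst7 a difference of several-fold in that gene would not be detectable.

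Among the genes that did differ were markers of neural cells. Of 14892 genes 33 (0.222%) were higher in the cortical population and 0 lower; at unadjusted p below 0.05 the numbers were 1444 and 231, and DESeq2 called 590 and 34. The 33 included Syt1, Nefl, Scn2a and Ank3, genes of neurons, and Sox9 and Ntrk2, which astrocytes express. Ptn, Sox11, Golga7b and Arhgap44 were among the largest. Syt1, Sox9, Ptn and Ank3 had 0 counts in the hippocampal cells. Against a floor of 3 counts over that group, the pooled ratio was at least 573 for Sox9, 501 for Ptn and 364 for Ank3. These figures allow for counting error only and are no lower bounds over animals. The fitted log2 differences were 12.1 ± 1.98 (SE) for Sox9, 11.9 ± 1.73 for Ptn and 11.5 ± 1.65 for Ank3.

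The neuronal list summed to 1561 ± 455 CPM in cortex and 104 ± 71.7 CPM in hippocampus, and the astrocyte list to 1538 ± 637 and 141 ± 5.87 CPM. Without the cells that held at least 2 markers of another cell type, 0 genes were called in either direction by edgeR, with 511 at unadjusted p below 0.05. That filter took out 191 of 587 cells in cortex and 23 of 362 in hippocampus. It picks cells by markers of these same cell types, so a loss of such calls was built in. The leading number in the library titles, whose meaning the labels do not give, differs between the regions throughout, so what it marks and the region cannot be told apart.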

How the data were processed

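Single-cell libraries followed a Smart-seq2-based protocol, per the labels' protocols. The submitters' processing notes name UMI-tools 0.5.3, HISAT2 2.1.0, featureCounts 1.6.0 and GRCm38 (mm10). The authors deposited unnormalized counts, with genes as rows and barcodes as columns. No source used here says whether reads of a molecule were merged; 35.9% of non-zero entries were 20 or more, so counts may be reads, and intervals cover counting error only.

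Groups came from titles, because genotype tags contradict them. Barcodes with fewer than 200 genes were left out. Libraries of an animal, region and gate were summed (23 sums in 6 groups) and tested with edgeR 4.0.16 in R 4.3.3 (limma 3.58.1; TMM, filterByExpr, quasi-likelihood test without a replicate block, 17 residual degrees of freedom, common biological coefficient of variation 1.37, adjusted p below 0.05). CPM are counts scaled to the raw total. Per-cell measures used cells thinned to 5000 counts, and were averaged per animal and tested by exact permutation (SciPy 1.17.1). Correlations and spread were computed within each animal. Symbols and exon lengths came from the GENCODE annotation of GRCm38, which covered all 26348 identifiers.

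The gates share the animal numbers of the titles. Deviations of same-numbered samples correlated at 0.049, 0.037, 0.057 and 0.063 over 3474 genes. By the titles these are the same animals, but the main edgeR and permutation tests took the samples of both gates as unpaired. Among the tests, the pairing entered only the replicate-block and sign-flip alternatives.

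The members and the 22 gene lists were chosen with earlier results of these data known. Named genes are the 5 markers, the 20 highest by CPM, up to 4 of each list by CPM, the 8 most and 8 least spread genes, the 5 highest and 5 lowest mixed pairs, the 5 highest pairs within each list, the 10 genes at either end of the relation to activation number, and the largest changes of at least 50 CPM with groups that do not overlap (10 each way between gates, 6 each way between regions). Other genes were named after their values were seen, and a few genes are not reported here by name. The statistics were tested on simulated data. A search of promoter windows for 3 motifs was also run and is not reported, because no measurement here bears on promoters. Alternatives, including DESeq2 1.42.0, are given in the closing section.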

Additional observations from a re-analysis of the deposited data

Results flagged for a closer look

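Among 81 values checked over the 4 animals of a group, 1 stood apart by Dixon's test at 95%. Dusp3, a phosphatase gene among the 20 leading genes, was at 2591 CPM in animal 3, while the other 3 animals reached up to 3247 CPM. Chance alone marks about 1 such set in 20, and animal 3 is the animal whose genotype tag contradicts its title.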

How the results depend on the processing

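Between the gates 183 genes were called. DESeq2 called 611 and a fit of only these 2 groups 434; without the libraries whose tag contradicts the title 38 were left, and leaving out 1 replicate gave 115 to 145. Between regions 33 were called: 78 without a gene filter, 624 by DESeq2, 452 in a fit of only these 2 groups, 0 without cells holding other cell types' markers, and 7 to 30 when 1 replicate was left out.

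The replicate block kept the per-animal differences (6.73 activation genes, 288 genes and 1.39 percentage points of mitochondrial counts), but 4 pairs allow no exact sign-flip p below the threshold. With the block in a fit of only the 2 groups, 271 genes were called, against 434 without it. Without the contradicting libraries the differences were 5.57 activation genes, 161 genes and -1.97 homeostatic genes, the last against -0.37 over all libraries (exact permutation p = 0.2, the smallest possible). Leaving out 1 replicate gave 6.33 to 7.17 activation genes, 236 to 338 genes and 1.20 to 1.59 percentage points, where no p below 0.0571 is possible. Leaving out 1 replicate, the homeostatic difference ran from -0.87 to 0.209 and turned above 0 without CD11c-negative replicate 3.

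The correlation (Spearman) between the numbers of genes was 0.306 at 2000 counts per cell, 0.265 at 10000, 0.378 unthinned, 0.283 within libraries and 0.176 as a partial value; shares of counts, chosen after seeing the data, gave 0.270, or 0.168 without Apoe and Cst3. The mean over animals of the median mixed pair, 0.0400, was 0.00917 without cells holding other cell types' markers.

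The spread of activation genes (mean of per-animal medians 0.07) was 0.19 against a line, and 3.12 percentage points as excess cells without a count. For homeostatic genes (-0.13) it was -0.20 at 10000 counts, -0.18 unthinned, -0.068 against a line and -2.11 percentage points as cells without a count. At 5 counts or after thinning, detection was 94.2% and 96.4% for Apoe, 52.0% and 56.5% for Cst7, 13.5% and 14.7% for Itgax and 17.7% and 20.1% for Igf1. Of 836 values of named fold changes under alternatives, 620 kept their call, 216 missed the threshold and 0 changed sign. The cause of these changes was not tested.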
